A study of Mus musculus with 6 samples.

Results

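The mitosis and G2/M genes described here are 50 genes whose products drive a cell from late G2 through mitosis and cytokinesis. They were measured in mouse bone marrow cells sorted as hematopoietic stem cells (HSCs), the cells that renew the blood. Transcript clusters are sets of probes given 1 value each, of which 33206 had no gene symbol and 2146 had several. The 50 genes were taken from the array's annotation as the clusters whose symbol was exactly that of the gene. Each of the 50 had exactly 1 such cluster, out of 65956 clusters on the array. In every case the chromosome in the cluster's name was that of the gene in RefSeq. The study compared 2 genotypes with 3 arrays each: wild-type mice and CDK19-/- mice, all aged 6 to 8 weeks and given no treatment that the labels name. Lineage-depleted marrow of the leg and hip bones was stained for HSC markers and sorted, and total RNA was hybridised. The deleted gene encodes a kinase that associates with Mediator, and the series' title names 2 things it bears on, how HSCs proliferate and how p53 acts on p21. The labels call the arrays biological replicates, give neither the number of animals per array nor the sort markers, and do not say which part of Cdk19 was removed. If arrays shared animals, the p-values below measure only the spread between these arrays.

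Progress into mitosis is set by the kinase CDK1 with its A- and B-type cyclins, which CDC25 phosphatases switch on. Polo-like and Aurora kinases then build the spindle, kinetochores couple chromosomes to it, and the spindle checkpoint holds back the anaphase-promoting complex until all are attached. Transcripts of most of these genes peak in G2 and mitosis. They are also known targets of the DREAM complex, a repressor that forms when the pocket proteins p107 and p130 are free of CDK phosphorylation, as happens when p21 is high.

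All of these genes that passed the test were lower in the knockout, each by a modest amount, and the larger share did not pass. Of the 50, all of which were bright enough to test, 21 fell, 0 rose and 29 did not pass (limma, Benjamini-Hochberg adjusted p under 0.05 over 39543 clusters). Among all tested clusters 4.84% were called lower and 2.96% higher. Counting 1 cluster for each named gene, the shares were 5.88% and 3.51%. Of these 50 genes 42.0% were called lower. The 50 were brighter than most clusters, with a median at percentile 89.8 of all clusters by mean level. With the dimmest 60% of clusters left out, 2237 of 26376 clusters were called lower and 1291 higher. In that fit 24 of the 50 genes were called lower and 0 higher. The falls were spread over the mitotic kinases, the kinetochore, the spindle, cytokinesis and the chromosome structure genes, and none was found among the 6 genes of CDK1 and its activators or the 4 of the checkpoint's target and anaphase. Log2 changes ran from -0.55 for Plk1 to 0.30 for Cenpa, with a median of -0.24 beside 0.00 for all tested clusters. The direction was below 0 for 45 of the 50, against 49.3% of all tested clusters. For 39 of the 50, all 3 knockout arrays lay below all 3 wild-type arrays, and for 1, Cenpa, above, while 14.9% and 11.6% of all tested clusters did so. The filter that left out the dimmest 40% of clusters by mean over the 6 arrays removed none of the 50. Its limit was 4.09 on the log2 scale, and the lowest value of any of the 50 in any array was 5.10.

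**Figure D1:**
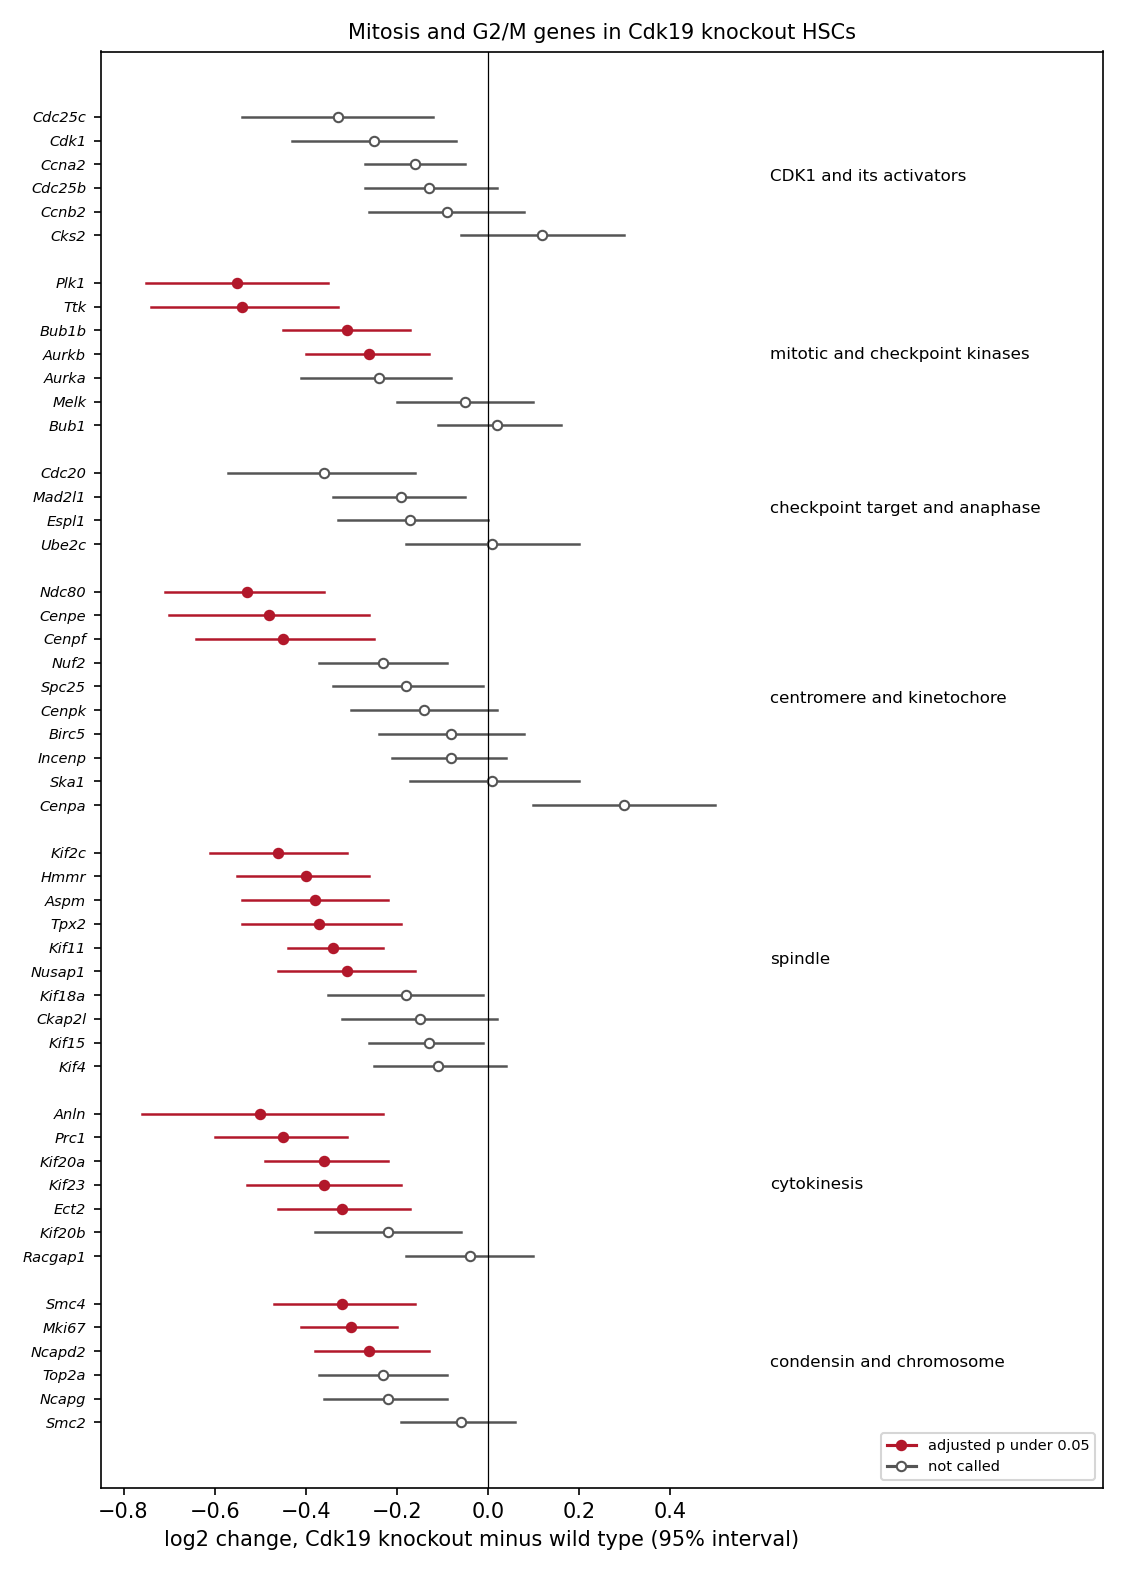
Log2 change (knockout minus wild type, horizontal axis) of each of the 50 genes, grouped by role, with the 95% interval of the limma fit over 3 arrays against 3. Filled red points mark the 21 genes with an adjusted p under 0.05. All of these lie to the left of 0, and the 5 points to the right of 0 are open.

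The number of genes called depended on having all 6 arrays. Leaving out a wild-type array (1, 2, 3) gave 10, 5 and 5 genes called lower, and leaving out a knockout array (1, 2, 3) gave 14, 10 and 11. Over all clusters the calls also became fewer: in place of 1914 lower, leaving out a wild-type array gave 1041, 867 and 764, and leaving out knockout array 2 gave 1167. In place of 1172 higher, leaving out a wild-type array gave 672, 593 and 542, and leaving out knockout array 1 gave 773. The median log2 change of the 50 genes stayed between -0.27 and -0.22 in the same 6 runs. Kif11, Kif2c, Mki67, Ndc80 and Prc1 were called lower in all 6 runs. Adjusted p-values quoted below for a left-out array are from the same limma fit with that array removed.

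**Figure D2:**
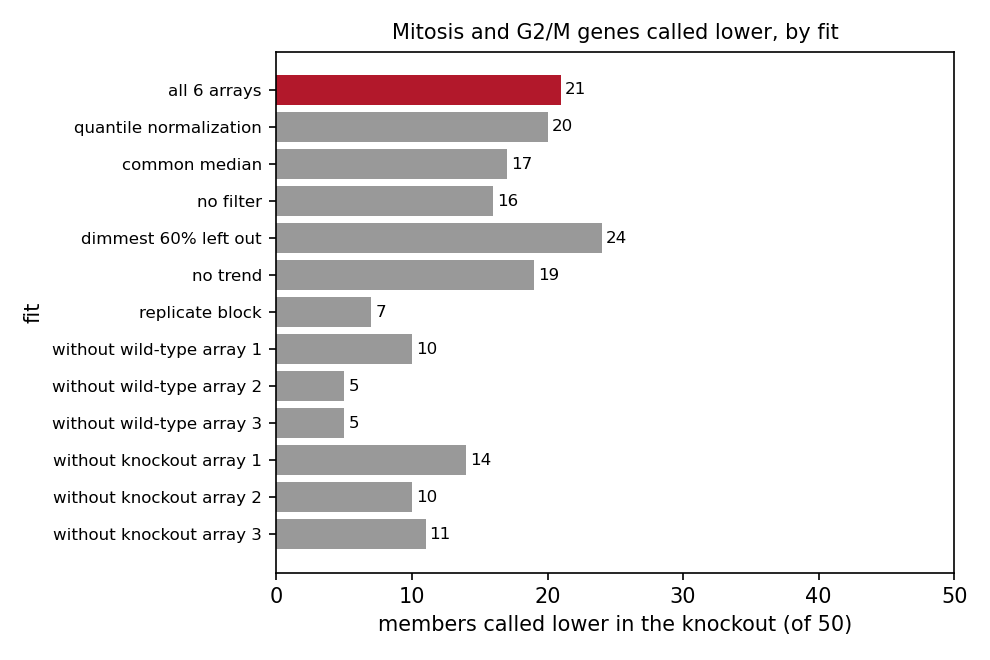
Number of the 50 genes called lower in the knockout (horizontal axis) in the fit to all 6 arrays (red) and in each alternative fit (grey). The count is 21 with all arrays, 24 with the dimmest 60% of clusters left out and 5 at the fewest, without wild-type array 2 or 3.

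Averaged over the 50 genes, levels were higher in each wild-type array than in any knockout array. The mean over the 50 of the difference from each gene's own 6-array mean was 0.09, 0.12 and 0.14 in wild-type arrays 1 to 3 and -0.09, -0.17 and -0.10 in knockout arrays 1 to 3 (log2). The same mean over all tested clusters was between -0.01 and 0.01 in every array. Knockout array 2 held the lowest value of 30 of the 50 genes, and wild-type arrays 2 and 3 held the highest of 17 and 23. Without knockout array 2 the median of the 50 was -0.23. The arrays hold RNA from many cells, so fewer cells in G2 or mitosis and less RNA per cell cannot be told apart.

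**Figure D3:**
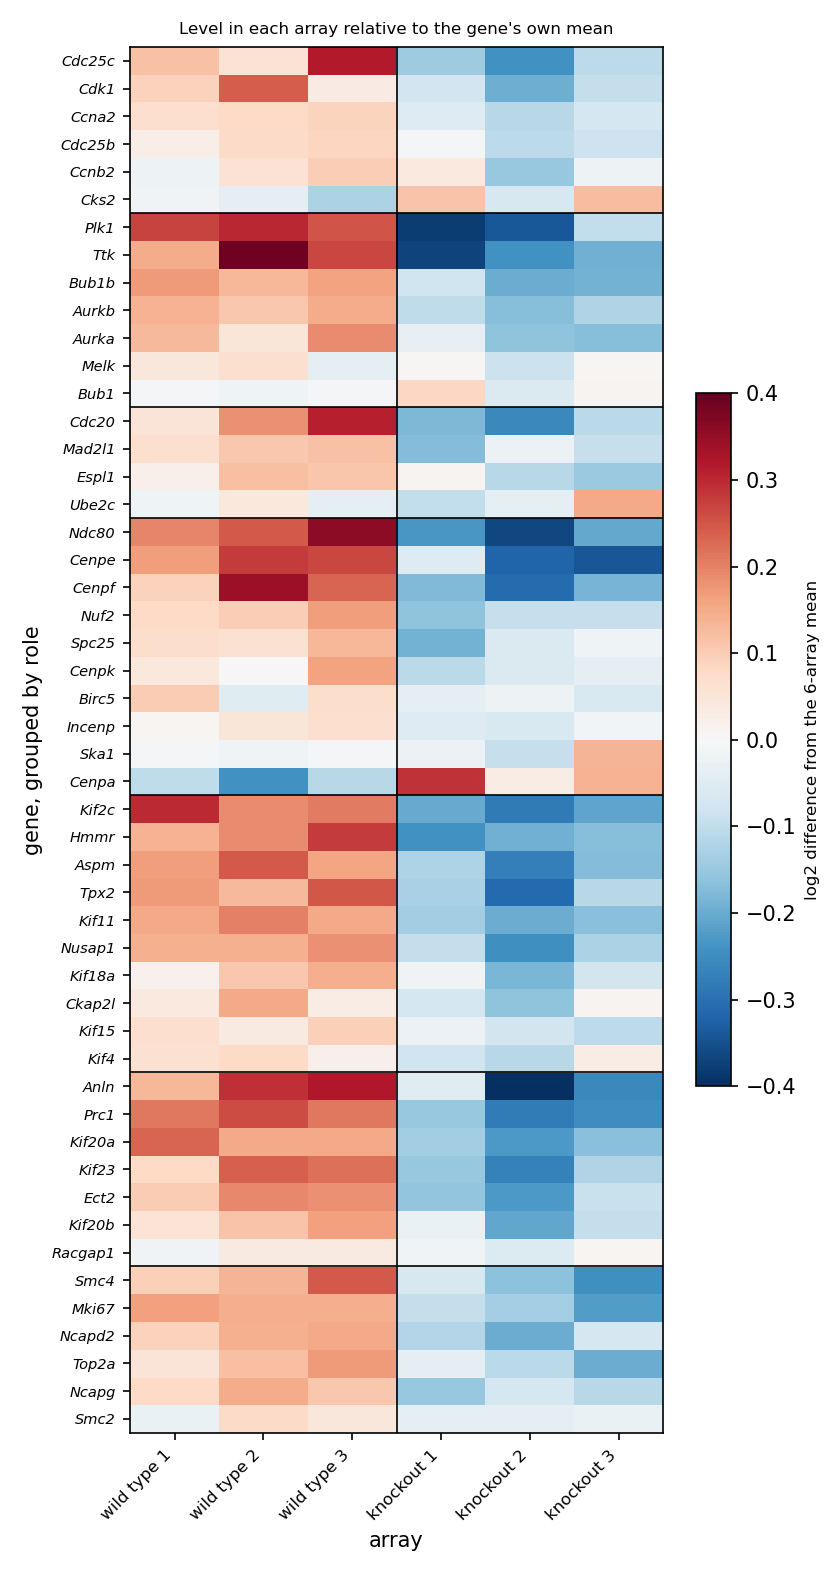
Level of each of the 50 genes (rows, grouped by role) in each of the 6 arrays (columns) as the log2 difference from that gene's own mean. Red is above and blue below the mean, and colours stop at 0.4 either side. The wild-type columns are mostly red and the knockout columns mostly blue, with Cenpa the other way round.

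Promoters of genes of this kind are known to carry the cell cycle genes homology region (CHR), the element through which DREAM and the B-MYB and FOXM1 activators act, often near CCAAT boxes bound by NF-Y. RefSeq promoter windows of GRCm38.p6, from 250 bases before to 50 after a gene's start, were at hand for 42 of the 50 genes. A CHR was searched as TTTGAA on either strand or TTCGAA, which reads the same on both, and a CCAAT box as CCAAT on either strand. Neighbouring matches may share end bases, and a window counts once however many it holds. Of the 42 windows, 33 held a CHR match (78.6%), against 19.4% of the windows of 27025 genes, 1 for each gene. A match starting within 50 bases of the gene start on either side was present in 30 of the 42 (71.4%), against 5.29% of all genes. CCAAT was present in 31 (73.8%) against 37.9%, and both motifs in 28 (66.7%) against 7.7%. Within the set, 15 of 17 fallen genes and 18 of 25 genes that did not pass held a CHR match anywhere in the window. Within 50 bases of the start the counts were 12 of 17 (70.6%) and 18 of 25 (72%), so the order of the shares turned with the stretch searched. Of the 37 G1/S and replication genes with a window, 8 (21.6%) held one and 23 (62.2%) a CCAAT. A match describes these letters only and is not a binding site shown here.

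**Figure D4:**
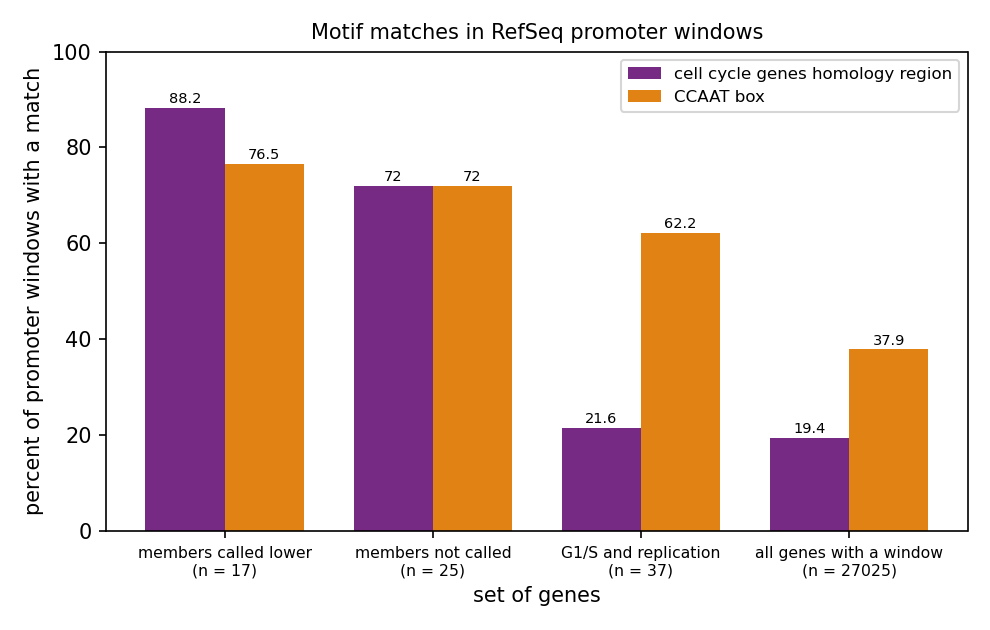
Percent of RefSeq promoter windows (vertical axis) with a CHR match anywhere in the window (purple) or a CCAAT match (orange) in 4 sets of genes. The CHR bars stand at 88.2% and 72% for the mitosis and G2/M genes called lower and not called, and at 21.6% and 19.4% for G1/S genes and for all genes with a window. Near-start matches, not drawn, stand at 70.6% and 72% in the first 2 sets.

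To show these elements in place, the promoters of the 4 fallen genes with the smallest p-values whose CHR match lies in the printed bases follow, 5′ to 3′ on the gene's strand, from 250 bases before the start to 30 after. Capitals mark the CHR and CCAAT matches, written as TTCAAA or ATTGG where the match is on the other strand. All are RefSeq sequence of GRCm38.p6. Kif11 is at chr19:37376132-37376411 on the plus strand, Prc1 at chr7:80294201-80294480 on the plus strand, Kif2c at chr4:117178743-117179022 on the minus strand and Mki67 at chr7:135716350-135716629 on the minus strand. In Kif11 the CHR letters begin 19 bases before the start and those of CCAAT 45 before. In Prc1 they begin 5 and 37 bases before. The Kif2c window holds a CHR match 103 bases before the start and no CCAAT, and that of Mki67 holds CHR matches 116 and 98 bases before the start and CCAAT matches 188, 166 and 141 before.
Kif11: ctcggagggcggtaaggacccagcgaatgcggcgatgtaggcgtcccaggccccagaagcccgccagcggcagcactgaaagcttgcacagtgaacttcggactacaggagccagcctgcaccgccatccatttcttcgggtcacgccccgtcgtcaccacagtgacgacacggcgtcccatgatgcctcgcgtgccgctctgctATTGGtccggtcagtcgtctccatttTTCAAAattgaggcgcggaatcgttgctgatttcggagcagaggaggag
Prc1: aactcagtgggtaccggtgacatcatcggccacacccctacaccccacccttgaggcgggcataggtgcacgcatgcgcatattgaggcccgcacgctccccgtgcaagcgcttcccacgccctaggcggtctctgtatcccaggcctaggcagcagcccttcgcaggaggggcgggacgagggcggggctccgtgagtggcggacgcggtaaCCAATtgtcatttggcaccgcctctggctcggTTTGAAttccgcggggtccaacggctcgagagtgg
Kif2c: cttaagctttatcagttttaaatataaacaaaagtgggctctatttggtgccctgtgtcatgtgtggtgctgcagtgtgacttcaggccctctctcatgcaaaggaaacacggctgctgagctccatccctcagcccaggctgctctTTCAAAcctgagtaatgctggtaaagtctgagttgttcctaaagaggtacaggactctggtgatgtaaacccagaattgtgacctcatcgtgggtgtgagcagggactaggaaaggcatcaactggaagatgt
Mki67: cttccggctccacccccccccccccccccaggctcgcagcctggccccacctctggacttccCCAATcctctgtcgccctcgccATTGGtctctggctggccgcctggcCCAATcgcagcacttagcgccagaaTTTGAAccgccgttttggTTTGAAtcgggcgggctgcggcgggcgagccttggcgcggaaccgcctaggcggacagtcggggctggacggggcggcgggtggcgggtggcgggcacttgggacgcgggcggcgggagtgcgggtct

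Of the 6 genes of CDK1 and its activators, 0 fell and 0 rose, with a median log2 change of -0.14. Cdc25c, a phosphatase that activates CDK1, was at 6.69, 6.63 and 6.89 in wild type and 6.43, 6.33 and 6.47 in knockout (log2 level). Every knockout array lay below every wild-type array, but the log2 difference of -0.33 did not pass (SE 0.09, adjusted p = 0.08). Cdk1 itself was at 9.50, 9.65 and 9.44 against 9.33, 9.21 and 9.31, a difference of -0.25 (adjusted p = 0.112). Ccna2, encoding cyclin A2, was at 11.22, 11.23 and 11.24 against 11.10, 11.04 and 11.08, a difference of -0.16 (adjusted p = 0.106). For both genes the groups did not overlap. The mitotic cyclin gene Ccnb2 differed by -0.09 (95% interval -0.26 to 0.08) and Cdc25b by -0.13 (-0.27 to 0.02). Cks2, encoding a small CDK-binding protein, differed the other way by 0.12 (-0.06 to 0.30), with overlapping groups.

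Of 7 mitotic and checkpoint kinase genes, 4 fell. Plk1, the polo-like kinase needed for spindle assembly and cytokinesis, was at 10.46, 10.49 and 10.44 in wild type and 9.81, 9.85 and 10.09 in knockout. Ttk, encoding the checkpoint kinase MPS1, was at 8.53, 8.77 and 8.65 against 8.01, 8.14 and 8.19. In both genes the lowest wild-type array stood well above the highest knockout array. The log2 changes were -0.55 for Plk1 (SE 0.08, adjusted p = 0.012), or 1.46-fold lower, and -0.54 for Ttk (SE 0.09, adjusted p = 0.014), the largest falls of the set together with that of Ndc80. Both calls were lost without wild-type array 2 (adjusted p = 0.058 and 0.055) or 3 (0.054 and 0.063). Bub1b, encoding the checkpoint protein BUBR1, was at 9.81, 9.77 and 9.80 against 9.56, 9.44 and 9.45, a change of -0.31 (adjusted p = 0.024). Its call was kept without knockout array 1 (0.031) and lost in the other 5 runs (0.065 to 0.105). Aurkb, the kinase of the chromosomal passenger complex, changed by -0.26 (adjusted p = 0.037), a call lost whichever array was left out (0.072 to 0.148). The centrosome kinase gene Aurka differed by -0.24 (adjusted p = 0.096) without overlap between groups. The checkpoint kinase gene Bub1 was at 10.41 ± 0.01 and 10.43 ± 0.07 (SD, n = 3), a difference of 0.02 (95% interval -0.11 to 0.16) that turned to -0.01 with arrays shifted to a common median. Melk differed by -0.05 (-0.20 to 0.10).

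None of the 4 genes of the checkpoint's target and of anaphase passed. Cdc20, the activator of the anaphase-promoting complex that the checkpoint restrains, came closest. It was at 7.75, 7.88 and 8.01 in wild type and 7.52, 7.44 and 7.59 in knockout, a log2 difference of -0.36 (SE 0.09, adjusted p = 0.053). With the dimmest 60% of clusters left out its adjusted p was 0.036. Mad2l1, encoding the checkpoint protein that binds CDC20, was at 9.86, 9.90 and 9.91 against 9.62, 9.77 and 9.70, a difference of -0.19 (adjusted p = 0.118). Espl1, encoding separase, which cleaves cohesin at anaphase, was at 7.43, 7.53 and 7.52 against 7.42, 7.30 and 7.26, a difference of -0.17 (adjusted p = 0.232). The groups of these 3 genes did not overlap. Ube2c, encoding a ubiquitin-conjugating enzyme of the anaphase-promoting complex, differed by 0.01 (95% interval -0.18 to 0.20), and by -0.02 with a common median.

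At the centromere and kinetochore, 3 of 10 genes fell, Ndc80, Cenpe and Cenpf. Ndc80, a subunit of the complex that grips spindle microtubules, was at 9.43, 9.48 and 9.59 in wild type and 9.0, 8.87 and 9.03 in knockout. That is a change of -0.53 (SE 0.07, adjusted p = 0.0081), with groups far apart and a call kept in all 6 runs with an array left out (0.021 to 0.041). Its partners in the same complex did not pass: Nuf2 differed by -0.23 (adjusted p = 0.064) and Spc25 by -0.18 (adjusted p = 0.207), both without overlap between groups. With the dimmest 60% of clusters left out, Nuf2 passed (adjusted p = 0.044) and Spc25 did not (0.14). Whether these changes differ from that of Ndc80 was not tested. Cenpe, a kinetochore motor gene, was at 9.83, 9.94 and 9.93 against 9.61, 9.34 and 9.32, a change of -0.48 (adjusted p = 0.027). Cenpf, encoding a large protein of the outer kinetochore, was at 8.87, 9.12 and 9.01 against 8.60, 8.47 and 8.59, a change of -0.45 (adjusted p = 0.023). The Cenpe call was kept without knockout array 1 (0.013) and lost in the other 5 runs (0.066 to 0.106). That of Cenpf was kept without wild-type array 1 (0.032) and lost in the other 5 (0.054 to 0.097).

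Cenpa, encoding the histone H3 variant that marks the centromere, was the only gene of the 50 with the knockout arrays all above the wild-type arrays. Its level was 9.20, 9.06 and 9.19 in wild type and 9.59, 9.33 and 9.44 in knockout. The log2 difference of 0.30 (SE 0.08, 95% interval 0.10 to 0.50) did not pass (adjusted p = 0.087), but it did after quantile normalization (0.33, adjusted p = 0.045). The remaining centromere genes did not pass either. Cenpk of the inner kinetochore differed by -0.14, and Birc5 (survivin) and Incenp, partners of Aurora B, by -0.08 each. Ska1, which helps kinetochores track microtubules, was at 5.19 ± 0.01 and 5.20 ± 0.12 (SD, n = 3). Its difference was 0.01 (-0.17 to 0.20), or -0.02 with a common median.

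Among the 10 spindle genes 6 fell, and all 10 had a log2 change below 0 (median -0.33). Kif11, the motor that pushes spindle poles apart and the first of the promoters printed above, was at 13.17, 13.22 and 13.17 in wild type and 12.88, 12.82 and 12.85 in knockout. Kif2c, encoding a kinesin that depolymerises microtubules at the centromere, was at 7.92, 7.81 and 7.83 against 7.42, 7.34 and 7.41. Arrays of 1 genotype lay close together in both genes, far from those of the other. The changes were -0.34 for Kif11 (SE 0.04, adjusted p = 0.0068) and -0.46 for Kif2c (SE 0.06, adjusted p = 0.008), and both calls held in all 6 runs (up to 0.039 and 0.041). Hmmr, encoding a spindle-associated hyaluronan receptor, was at 9.55, 9.60 and 9.69 against 9.17, 9.22 and 9.24. It changed by -0.40 (adjusted p = 0.012), a call lost without wild-type array 2 (0.054) or 3 (0.058).

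The other spindle genes that fell were Aspm (-0.38, adjusted p = 0.019), which acts at spindle poles, Tpx2 (-0.37, 0.031), the activator of Aurora A, and Nusap1 (-0.31, 0.03), which bundles microtubules. The Aspm call was kept without knockout array 1 (0.037) or 2 (0.049) and lost in the other 4 runs, at 0.052 without knockout array 3 and 0.064 to 0.085 without a wild-type array. Tpx2 and Nusap1 lost theirs whichever array was left out (0.051 to 0.124 and 0.051 to 0.127). The spindle genes that did not pass were Kif18a (-0.18), Ckap2l (-0.15), Kif15 (-0.13) and Kif4 (-0.11). For Kif18a, Ckap2l and Kif15 the groups did not overlap.

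Cytokinesis genes had the highest share of calls of any role, 5 of 7, with a median of -0.36. Prc1, which bundles the microtubules of the central spindle, was at 9.47, 9.52 and 9.47 in wild type and 9.11, 8.98 and 9.01 in knockout, a change of -0.45 (SE 0.06, adjusted p = 0.0075). Kif20a, a kinesin that brings Polo-like kinase and Aurora B to the central spindle, was at 9.94, 9.86 and 9.86 against 9.57, 9.48 and 9.54, a change of -0.36 (adjusted p = 0.014). Ect2, the exchange factor that switches on RhoA at the cleavage furrow, was at 10.54, 10.63 and 10.62 against 10.28, 10.21 and 10.35, a change of -0.32 (adjusted p = 0.026). In each of these genes the groups were well apart. The Prc1 call held in all 6 runs (up to 0.043). Kif20a lost its call without wild-type array 1 (0.059), 2 (0.058) or 3 (0.06), and Ect2 kept its call without knockout array 3 (0.035) and lost it in the other 5 runs (0.06 to 0.113).

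Anln, encoding the furrow scaffold anillin, changed by -0.50 (adjusted p = 0.045) and had the widest spread of the set among knockout arrays, 8.26, 7.87 and 8.05. Its call was kept without knockout array 1 (0.03) and lost in the other 5 runs (0.077 to 0.157). Kif23, encoding a motor of the centralspindlin complex, changed by -0.36 (adjusted p = 0.029), a call kept without wild-type array 1 (0.044) and lost in the other 5 runs (0.053 to 0.119). Its partner in that complex, Racgap1, differed by -0.04 (95% interval -0.18 to 0.10) with overlapping groups. Kif20b differed by -0.22 (adjusted p = 0.117), with no overlap.

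Of the 6 condensin and chromosome genes, 3 fell. Mki67, encoding the proliferation marker Ki-67 that coats mitotic chromosomes, was at 15.86, 15.84 and 15.84 in wild type and 15.60, 15.56 and 15.47 in knockout. The wild-type arrays had an SD of 0.01 and lay above all knockout arrays. The change was -0.30 (SE 0.04, adjusted p = 0.0094), or 1.23-fold lower, held in all 6 runs (up to 0.048). Ncapd2, a condensin subunit, was at 12.49, 12.54 and 12.55 against 12.28, 12.20 and 12.33, a change of -0.26 (adjusted p = 0.032). Smc4, an ATPase subunit shared by both condensins, was at 12.90, 12.94 and 13.05 against 12.74, 12.64 and 12.56, a change of -0.32 (adjusted p = 0.036). Groups were apart in both. The Ncapd2 call was kept without knockout array 3 (0.036) and lost in the other 5 runs (0.075 to 0.133), and that of Smc4 kept without knockout array 1 (0.041) and lost in the other 5 (0.071 to 0.128). Smc2, the other condensin ATPase, differed by -0.06 (95% interval -0.19 to 0.06) with overlapping groups. Ncapg differed by -0.22 (adjusted p = 0.07), and Top2a, the topoisomerase that untangles sister chromatids, by -0.23 (adjusted p = 0.064). With the dimmest 60% of clusters left out, Ncapg passed (adjusted p = 0.043) and Top2a did not.

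Other genes of the cell division machinery also held falls. A wider set of 117 tested genes held other mitotic genes and also the genes of the DREAM and MuvB complexes and their E2F partners. Of the 117, 16 fell (13.7%) and 3 rose (2.56%), with a median of -0.07. The 18 DREAM, MuvB and E2F genes, described on their own below, held 3 of these falls and 1 of these rises. Among all tested clusters 4.84% fell and 2.96% rose, so the share of rises was not above that of all clusters. Of 28 other kinetochore genes, 5 fell (17.9%) and 1 rose (3.57%), with a median of -0.16. Ska2, a partner of Ska1, fell by 0.68 (adjusted p = 0.0061), and Mis12, which links the inner and outer kinetochore, by 0.40 (adjusted p = 0.02). The Mis12 call was kept without wild-type array 1 (0.04) or knockout array 2 (0.044) and lost in the other 4 runs (0.054 to 0.091). The others, named after their values were seen, were falls of Knl1 (-0.36), Oip5 (-0.34) and Zwilch (-0.32) and a rise of Zwint (0.22). Each lost its call in at least 1 run (highest adjusted p 0.095 to 0.179), and Zwint in all 6 (0.067 to 0.179). Of 40 further mitotic regulators and motors, 5 fell (12.5%) and 1 rose (2.5%), with a median of -0.10. Kif22, a motor that moves chromosome arms, fell by 0.65 (adjusted p = 0.007) and the spindle gene Dlgap5 by 0.50 (adjusted p = 0.0086). Both, and Ska2, were called in all 6 runs. The others, named after their values were seen, were falls of Kif18b (-0.48), Troap (-0.31) and Wee1 (-0.31) and a rise of Lmnb1 (0.30). Each lost its call in at least 1 run (highest adjusted p 0.085 to 0.165). Troap (0.059 to 0.127) and Wee1 (0.073 to 0.165) lost theirs in all 6.

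Among 17 genes of the anaphase-promoting complex and its partners, 1 fell (5.88%, the same share as the 5.88% of all named genes; median -0.04). This was the subunit gene Cdc23, by 0.38 (adjusted p = 0.019), kept without knockout array 3 (0.034) and lost in the other 5 runs (0.053 to 0.081). Among 14 cohesin genes, 2 fell (14.3%, beside 4.84% of all tested clusters), with a median of -0.12. Sgo1, which protects cohesin at the centromere, fell by 0.44 (adjusted p = 0.0072) and was called in all 6 runs. Mau2, a cohesin loader, fell by 0.37 (adjusted p = 0.046), kept without knockout array 1 (0.032) and lost in the other 5 (0.078 to 0.154).

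Of 18 genes of the DREAM and MuvB complexes and their E2F partners, 3 fell (16.7%), 1 rose (5.56%) and 14 did not pass, with a median of -0.02, beside 4.84% and 2.96% of all tested clusters. Lin54, the MuvB subunit that contacts the CHR, was at 9.77, 9.85 and 9.79 in wild type and 10.49, 10.44 and 10.51 in knockout, a rise of 0.68 (SE 0.05, adjusted p = 0.0013), or 1.60-fold. Tfdp2, an E2F dimer partner, was at 8.85, 8.90 and 8.92 against 8.36, 8.36 and 8.42, a fall of 0.51 (adjusted p = 0.0039). The other falls, named after their values were seen, were those of the MuvB subunit gene Lin37 (-0.49, adjusted p = 0.006) and of Rbl2, which encodes p130 (-0.43, adjusted p = 0.011). The Rbl2 call was lost without wild-type array 2 (0.052) or 3 (0.058), and the others held in all 6 runs.

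Genes of G1/S and replication were called at about the background share or below it: of 44, 1 fell (2.27%) and 1 rose (2.27%), with a median of -0.02. Cdc7, the kinase that fires replication origins, was lower by 0.56 (adjusted p = 0.0032) and was called in all 6 runs. Orc1, of the origin recognition complex, was higher by 0.47 (adjusted p = 0.027), kept without knockout array 2 (0.019) and lost in the other 5 runs (0.066 to 0.102). Whether the mitotic and the G1/S genes differ was not tested, since the lists were chosen with earlier results known. Over all 167 other cell cycle genes, 18 were called lower (10.8%) and 5 higher (2.99%), beside 4.84% and 2.96% of all tested clusters. The higher share was thus about that of all clusters. Leaving out a wild-type array (1, 2, 3) gave 9, 7 and 7 lower, and leaving out knockout array 1 or 3 gave 11. The higher count fell to 2 when any of wild-type arrays 1 to 3, or knockout array 1, was dropped, to 3 for knockout array 3, and to 2 with a common median.

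**Figure D5:**
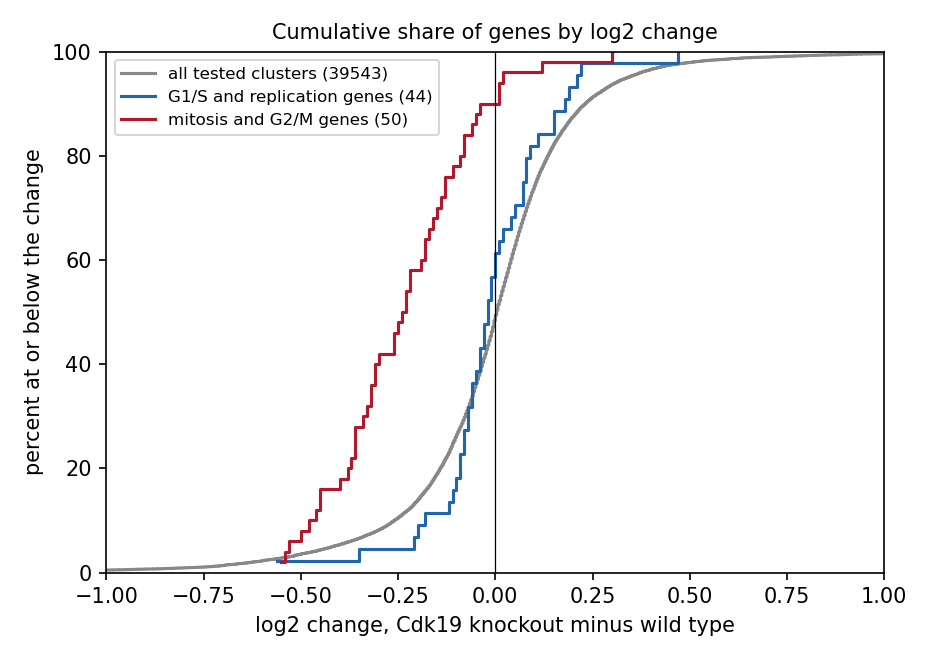
Cumulative percent of genes (vertical axis) at or below each log2 change (knockout minus wild type, horizontal axis, shown from -1 to 1) for the 50 mitosis and G2/M genes (red), 44 G1/S and replication genes (blue) and all 39543 tested clusters (grey). The red line lies to the left, with its median at -0.24, and the blue line crosses near 0 like the grey one.

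In the same arrays Cdkn1a, encoding the CDK inhibitor p21, was at 15.86, 15.78 and 15.81 in wild type and 16.89, 16.78 and 16.87 in knockout, a rise of 1.03 (SE 0.04, adjusted p = 1.5e-04). Cdkn1b, encoding p27, had a log2 change of -0.59 (adjusted p = 0.023), a call kept without knockout array 2 (0.026) or 3 (0.031) and lost in the other 4 runs (0.052 to 0.09). Of the 6 CDK inhibitor genes tested, 1 fell and 1 rose (16.7% each, beside 4.84% and 2.96% of all tested clusters). The other 4 did not pass, and Cdkn2b was below the filter. Cdk19, the targeted gene, was at 12.49, 12.45 and 12.38 against 11.49, 11.42 and 11.51, a change of -0.97 (adjusted p = 0.00032), so signal remained in every knockout array. A relation between p21 and the mitotic genes across arrays was not tested.

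Markers of cell types that the sort could hold were listed, and the levels of each list were summed. Those of HSCs, lymphoid-primed progenitors, B cells and megakaryocytes had sums that did not overlap between genotypes and 3 or more calls each. The sums of neutrophil and erythroid markers did not overlap either, with 1 call each. Among all tested clusters 4.84% were called lower and 2.96% higher. For 14.9% of them every knockout array lay below every wild-type array, and for 11.6% above. Of 10 HSC markers with a cluster, 9 passed the filter and Hoxb5 did not. Of the 9, 3 fell (Kit, Meis1 and Hlf) and 6 did not pass, of which Procr (0.08) and Ctnnal1 (0.10) lay above 0. The list's summed level (log2 of the sum of linear values) was 14.87 to 14.88 in wild type and 14.34 to 14.41 in knockout. A sum of this kind follows its brightest genes. In wild type Kit stood at 14.53, and among progenitor markers Flt3 stood at 14.51 and Mpo at 16.93. The HSC markers Slamf1 and Fgd5 were dimmer, at 5.78 and 5.36, and Meis1 was at 12.10. Purity of the sort was not tested. Lymphoid-primed progenitor markers fell in 6 of 7 tested, with a summed level of 15.13 to 15.15 against 14.14 to 14.23 and Rag2 below the filter. B cell markers fell in 4 of 7 (Cd79a, Ebf1, Igll1 and Blnk), at 8.66 to 8.73 against 8.35 to 8.43, with Ms4a1 below the filter. Igll1 was at 4.02, 3.87 and 3.89 in knockout, under the filter limit of 4.09. It passed the filter only through its wild-type level (mean 4.39), so its call adds no support. Knockout means of Cd79a, Ebf1 and Blnk were 4.96, 4.98 and 5.26. The brightest gene in this sum, Cd79b, did not pass (mean 7.40 in wild type and 7.31 in knockout). Of 6 listed megakaryocyte markers tested, 4 rose (Itga2b, Gp9, F2r and Itgb3), and Pf4 (0.26) and Vwf (0.15) did not pass. Their list's summed level was 10.08 to 10.15 against 10.97 to 11.04, with Ppbp and Gp6 below the filter. The brightest gene in this sum was F2r, at mean levels of 9.31 in wild type and 10.46 in knockout. How far F2r marks megakaryocytes in these mice was not tested. Granulocyte-monocyte progenitor markers rose in 3 and fell in 1 of 8, at 17.00 to 17.02 against 16.93 to 17.01. For neutrophil markers 1 of 6 rose, at 9.52 to 9.63 against 9.74 to 10.04, with Mmp8 and Mmp9 below the filter, and for erythroid markers 1 of 6 fell, at 10.03 to 10.10 against 9.88 to 9.91. The granulocyte-monocyte sums overlapped. T and NK cell markers did not pass in any of 3 tested, at 6.93 to 7.0 against 6.88 to 6.99, and Cd3e, Cd8a, Zap70 and Ncr1 were below the filter. Of the marker calls, those of Satb1, Igll1, Ctsg, Prtn3, Irf8 and Itgb3 were lost in at least 1 run with an array left out (highest adjusted p 0.062 to 0.147). The part of these cell types in the lower mitotic transcripts was not tested.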

How the data were processed

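Gene expression was measured on 6 whole-transcript arrays, 3 wild type and 3 Cdk19 knockout, grouped by their titles. The deposited table holds 1 value per transcript cluster and array, made by the authors and taken here as log2. It runs from 2.04 to 19.93, with array medians between 4.40 and 4.48. MAS5 is the one tool listed in the submitters' processing notes, without its role, and the values do not have its linear form. How background, probe summary, normalization and log base were set is not given in the sources used here, so every fold rests on the log2 reading. No detection call or batch was used, and precision is limited by having 6 arrays.

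Platform symbols, some years old, named 30604 clusters with 1 gene, 2146 with several and 33206 with none. Symbols of the other cell cycle and marker lists were updated through RefSeq (1135 clusters). The dimmest 40% of clusters were left out and genotype was fitted to 39543 with limma 3.58.1 in R 4.3.3 (eBayes, trend on mean level). All tests were two-sided, with Benjamini-Hochberg adjustment across the tested clusters. The pipeline was tested on simulated data. Tables and plots used Python 3.11.15, pandas 2.3.3 and matplotlib 3.10.9.

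The 50 genes, the lists and the tests were chosen with earlier results of these data known. The naming rule gave every array for the 3 members of each role with the smallest p, and took Cdk19, Cdkn1a and up to 2 called genes of each other list. Other members are given by their change. Alternatives were quantile normalization, a common median, no or a stricter filter, no trend, a replicate block, each array left out, and the mean of all clusters of a symbol. For the printed promoters, genes whose CHR match lay beyond the printed bases, of which there was 1 (Ndc80), were passed over.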

Additional observations from a re-analysis of the deposited data

How the results depend on the processing

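The median log2 change of the 50 genes lay between -0.27 and -0.22 in every fit tried. Averaging all clusters of a symbol changed nothing, since each gene has 1 cluster. The count called lower was 24 with the dimmest 60% left out, 20 after quantile normalization, 19 with no trend, 17 with a common median and 16 with no filter. With each array left out in turn it ran from 5 to 14, while the count over all clusters ran from 764 to 1508 for lower and 542 to 971 for higher calls. For the other cell cycle genes it ran from 7 to 12 lower and 2 to 4 higher, and a common median left 2 higher. Quantile normalization called 1 of the 50 higher, Cenpa.

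With the replicate block, 7 of the 50 genes were called lower, 1083 clusters lower and 630 higher, and 7 other cell cycle genes lower and 2 higher. The labels number the arrays of both genotypes alike, but same-numbered arrays did not deviate together (correlations of -0.138, -0.097 and 0.025), so the numbers were not taken as pairs, and no array correlated best with its own number.

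With a common median, Bub1 turned to -0.01, Ube2c to -0.02 and Ska1 to -0.02. With an array left out, Bub1 ran from -0.01 (without knockout array 1) to 0.06, Ube2c from -0.06 (knockout array 3), with -0.01 for wild-type array 3, to 0.06, and Ska1 from -0.05 (knockout array 3) to 0.06. None of these was called in any fit. The causes were not tested. With 3 arrays a genotype, changes of the size seen here sit near the threshold, and genes that did not pass are not shown to be unchanged.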
